A study of Mus musculus with 6 samples.

Results

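The genes described here encode the machinery of mitosis: the cyclins and kinases that start it, the spindle checkpoint, the kinetochore, the motors and bundlers of the spindle, the cytokinesis proteins, and the condensin complex. They were taken from a list of 50 genes, and 49 of these were measured, out of 19938 genes with a transcript cluster of their own on the array. Where a gene had several clusters the one with the highest mean over the 6 arrays was used. Ccnb1, which encodes cyclin B1, had no cluster under its symbol and was not analysed here. RNA came from CD4+TCRβ+ cells, sorted from pooled inguinal, brachial and axillary nodes of naive wild-type C57BL/6J females aged 8 weeks (B6) and of age-matched females of the consomic strain B6-ChrYSJL, whose fathers carry the ChrY of SJL on the C57BL/6J background. None was immunized or treated, and the paper describes female-only litters only for a separate experiment that induced disease. The females of both strains lack a ChrY, so that by design the groups differ in the ChrY of their fathers. The consomic strain was kept by sibling mating between backcrosses to purchased B6 mice, so colony and litter cannot be told apart from strain. Each strain gave 3 pools of 5 mice, and each pool gave 1 Affymetrix Mouse Gene 1.0 ST array. The comparison asks whether the ChrY of the father leaves a mark on the basal transcriptome of the daughters' CD4+ T cells.

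Most lymph node T cells rest outside the cell cycle, and many mitotic transcripts are scarce in them, although some of these genes are also transcribed outside mitosis. In dividing cells most of these genes are switched on together late in the cycle, and the MuvB complex, which joins pocket proteins and E2F in resting cells and B-Myb and FoxM1 in dividing ones, holds them silent or activates them. Cyclin-dependent kinase then drives entry into mitosis, the kinetochore ties chromosomes to the spindle, the checkpoint waits for the last attachment, and the anaphase-promoting complex with Cdc20 releases the sister chromatids.

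MuvB binds a short element, the cell cycle genes homology region (CHR), and the factor NF-Y binds CCAAT boxes next to it. The letters TTTGAA or TTTAAA of the CHR and the letters CCAAT were therefore searched on both strands of the RefSeq promoter windows of GRCm38.p6, which reach from 250 bases before a transcript's start to 50 after it. Of the 50 genes 42 had a window, 46 windows in all. CHR letters lay within the 100 bases before the start in 12 of the 46 windows (26.1%), against 9.71% of all 32851 windows in the table, and CCAAT in 28 (60.9%), against 18.9%. Both occurred there in 10 windows (21.7%), against 1.77% of all. The 6 windows shown are those of genes given below with every pool that hold CHR letters in this stretch. They are the 100 bases before the start, 5′ to 3′ on the gene's strand, with CHR letters and CCAAT boxes, on either strand, in capitals.
Mki67 (chr7:135716380-135716479, minus strand): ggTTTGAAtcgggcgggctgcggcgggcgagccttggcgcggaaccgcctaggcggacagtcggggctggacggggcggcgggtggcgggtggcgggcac
Top2a (chr11:99024190-99024289, minus strand): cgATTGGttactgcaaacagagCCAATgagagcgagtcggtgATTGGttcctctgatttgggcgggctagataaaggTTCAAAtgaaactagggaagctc
Kif11 (chr19:37376282-37376381, plus strand): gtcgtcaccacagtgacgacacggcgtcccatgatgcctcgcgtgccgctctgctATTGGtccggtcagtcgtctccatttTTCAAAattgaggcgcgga
Ncapg (chr5:45669825-45669924, plus strand): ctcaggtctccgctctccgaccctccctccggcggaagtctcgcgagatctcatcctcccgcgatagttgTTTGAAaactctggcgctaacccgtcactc
Cdk1 (chr10:69352913-69353012, minus strand): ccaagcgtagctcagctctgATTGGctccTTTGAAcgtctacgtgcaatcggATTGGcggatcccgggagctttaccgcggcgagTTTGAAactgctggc
Cenpa (chr5:30666786-30666885, plus strand): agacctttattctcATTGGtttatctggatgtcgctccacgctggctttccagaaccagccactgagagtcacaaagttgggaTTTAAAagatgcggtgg
Top2a held 3 CCAAT boxes before a CHR, and Cdk1 held 2 of each. Mki67 and Ncapg held a CHR and no CCAAT box in these bases. The first 4 of the 6 genes were lower in B6-ChrYSJL and the last 2, Cdk1 and Cenpa, were close to equal, as described below. CHR letters before the start were found in 26.3% of the windows of genes lower at an unadjusted p under 0.05 (5 of 19) and in 23.1% of those of the other measured genes (6 of 26). Such matches are of letters, and factor binding was not measured.

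Cells of both strains carried the T cell transcripts Cd4, whose mean over 3 pools was 11.5 in each strain (SD 0.06 for B6 and 0.03 for B6-ChrYSJL), and Cd3e, at 12.5 in both. Values are the authors' log2 signals after Robust Multichip Average (RMA) processing, so that a difference of 1 is a 2-fold change. Array medians lay between 6.41 and 6.44, arrays correlated at 0.991 to 0.993 across transcripts, and no array stood apart. A background level of 5.98 was set at the 95th percentile among 6-array means of 1210 chemoreceptor transcripts of nose and vomeronasal organ, taken as silent in T cells. Of 23410 transcripts tested with limma, 4 passed a false discovery rate (FDR) of 0.05, or 0.0171%.

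Transcripts of mitosis tended to be lower in B6-ChrYSJL than in B6, by small amounts, and no single gene passed the FDR. At an unadjusted p under 0.05 in limma 20 of the 49 genes were lower and none was higher, or 40.8% lower, where 5.92% of all tested transcripts were lower and 4.69% were higher. The genes were chosen with earlier results of these data known and were measured on the same 6 arrays. The 20 calls are therefore not separate pieces of support, and the shares are given as a description. The median log2 fold change was −0.15 over the 49 genes and −0.00 over all tested transcripts, and 40 of the 49 were below 0, or 81.6%, against 51.1%. None of the 49 passed an FDR of 0.05, with a smallest adjusted p of 0.148 in limma, and none did in the ordinary linear model of the methods. In that model 11 genes were lower at an unadjusted p under 0.05 (5.79% of all tested transcripts). One of them was Cdc25b, which is not among the 20. In 19 genes every B6-ChrYSJL pool lay below every B6 pool (38.8%, against 9.42% of all tested transcripts), and in none did every B6-ChrYSJL pool lie above (7.68% of all tested transcripts). Of the 49 genes 25 averaged above background, and 8 of these were among the 20 (32%, against 7.15% of all tested transcripts above background), with a median of −0.09 and none higher (3.98%). Of these 25 genes 8 were lower without overlap (12.2% of transcripts above background) and none was higher without overlap (7.96%), 18 were below 0 (55.6%) and none passed the FDR (0.0208%). The other 12 of the 20 averaged at or below it, where the array compresses differences and the size of a change is uncertain. The same holds for Mki67, Bub1b, Birc5 and Ncaph, whose means were above background in B6 only. The count fell to 11 without B6 replicate 2 or without B6-ChrYSJL replicate 1 and was 14 to 16 without any other pool. In these fits 4.31 to 5.69% of all tested transcripts were lower by that measure. In these bulk samples fewer dividing cells and less RNA in each dividing cell cannot be told apart.

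**Figure D1:**
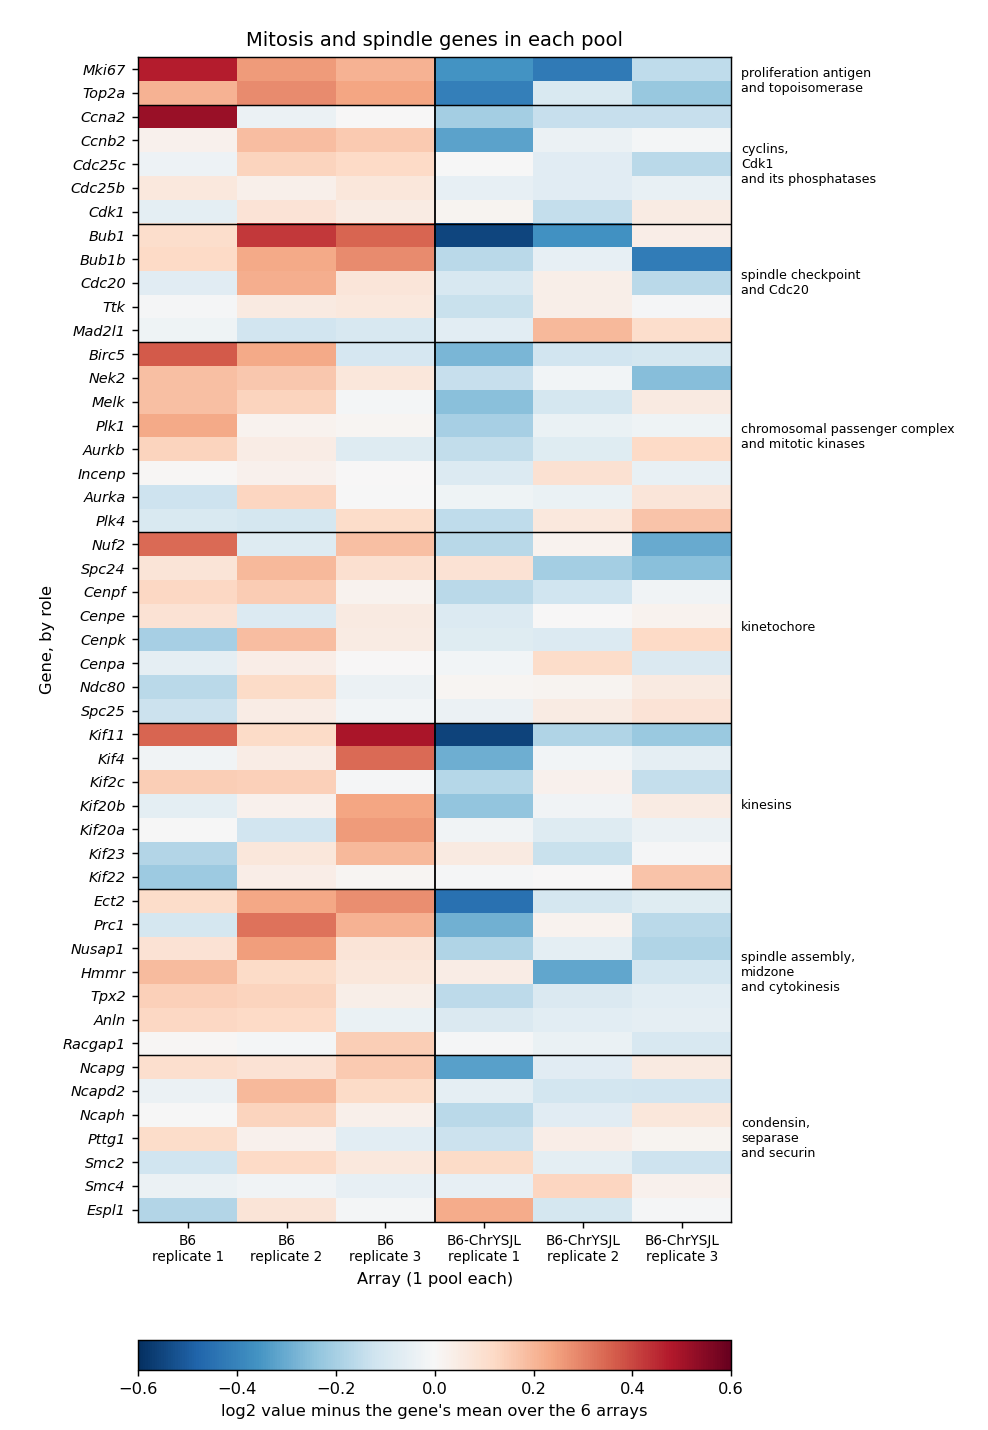
Log2 values of the 49 genes, each centred on its 6-array mean (colour), by gene and role (rows) and pool (columns), with B6 pools left of the line. The B6 pools are mostly red and B6-ChrYSJL replicate 1, where 7 of 49 genes exceed their own mean, is mostly blue.

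Both proliferation markers were lower at an unadjusted p under 0.05, as were 5.92% of all tested transcripts. Mki67 encodes Ki-67, the antigen by which dividing cells are stained, which coats mitotic chromosomes. Its transcript was 6.60, 6.38 and 6.33 in the B6 pools and 5.77, 5.70 and 5.98 in the B6-ChrYSJL pools. All B6 pools were above background and all B6-ChrYSJL pools below it, with a gap of 0.36 between the groups. The log2 fold change was −0.62 (standard error 0.10, unadjusted p = 0.000202, adjusted p = 0.148 from limma). Top2a encodes topoisomerase IIα, which disentangles sister chromatids, and was 7.07, 7.15 and 7.10 in B6 and 6.45, 6.78 and 6.64 in B6-ChrYSJL. The groups again lay apart, here above background throughout, and the log2 fold change was −0.48 (standard error 0.09, adjusted p = 0.192 from limma), or 1.40-fold. A second Top2a cluster, far below background, ran the other way, averaging 4.51 in B6 and 4.69 in B6-ChrYSJL. Its log2 fold change was 0.18 (unadjusted p = 0.0482, adjusted p = 0.466, both from limma). A pair of clusters that the annotation assigns to Top2a and Hibadh together also ran the other way, by 0.05 and 0.12. Averaged over the clusters of Top2a alone, the log2 fold change was −0.15 (unadjusted p = 0.0772 in limma). The difference of Top2a thus rests on its main cluster.

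**Figure D2:**
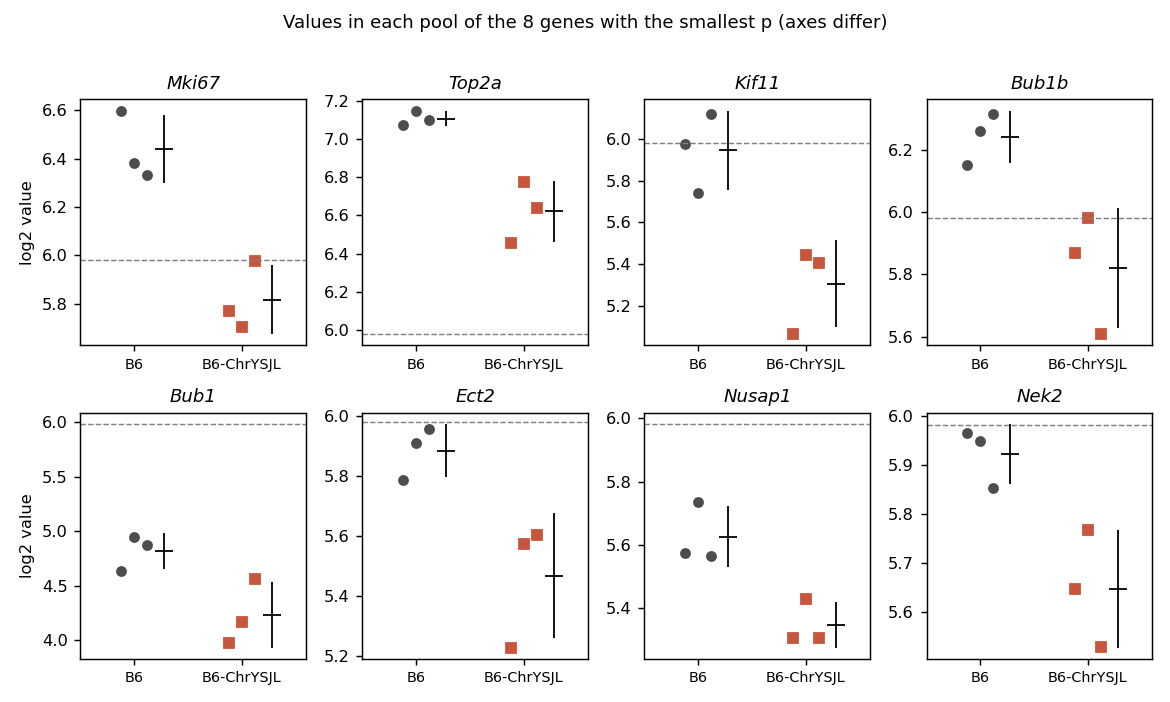
Log2 values of the 8 genes with the smallest p, for B6 pools (circles) and B6-ChrYSJL pools (squares), with the mean and SD of 3 pools as mark and bar and the background level of 5.98 as a dashed line. The groups do not overlap in any of the 8, and Top2a alone keeps every pool above the line.

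Among cyclins and their kinase, both measured mitotic cyclins were lower, while Cdk1 lay level. Ccna2, the cyclin A of S phase and mitotic entry, was 7.13, 6.57 and 6.61 in B6 and 6.41, 6.47 and 6.47 in B6-ChrYSJL. B6 replicate 1 stood above the other B6 pools, and the log2 fold change of −0.32 (standard error 0.14, unadjusted p = 0.0469 in limma) was −0.14 without it. Ccnb2, a B-type cyclin, was 7.17, 7.32 and 7.30 in B6 and 6.82, 7.11 and 7.13 in B6-ChrYSJL. The groups were 0.04 apart, with B6-ChrYSJL replicate 1 the lowest, and the log2 fold change of −0.24 (standard error 0.10) was −0.15 without that pool (unadjusted p = 0.108 in limma). Cdk1, the kinase these cyclins activate, was 5.73, 5.87 and 5.84 in B6 and 5.80, 5.64 and 5.83 in B6-ChrYSJL. Its groups overlapped, its values stayed below background, and its log2 fold change of −0.05 was smaller than its standard error of 0.08. Cdc25b, one of the phosphatases that release Cdk1 from inhibition, was 7.43, 7.40 and 7.44 in B6 and 7.32, 7.30 and 7.32 in B6-ChrYSJL. The pools of each strain were within 0.04 of one another and the groups 0.08 apart. The difference of −0.11 (standard error 0.06) had an unadjusted p of 0.104 with limma's moderated variance and of 0.00112 in the ordinary linear model (adjusted p = 0.263). Cdc25c, the other phosphatase, was below background and at −0.15 (standard error 0.08).

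In the spindle checkpoint, Bub1 and Bub1b were lower and Mad2l1 had the opposite sign. Bub1, the checkpoint kinase of the outer kinetochore, was 4.63, 4.95 and 4.88 in B6 and 3.97, 4.16 and 4.57 in B6-ChrYSJL. Every pool lay well below background, the groups were 0.07 apart, and the log2 fold change was −0.59 (standard error 0.15, adjusted p = 0.319 from limma). Bub1b, which encodes BubR1 of the complex that blocks Cdc20, was 6.15, 6.26 and 6.31 in B6 and 5.87, 5.98 and 5.61 in B6-ChrYSJL. It lay above background in each B6 pool and averaged below it in B6-ChrYSJL (−0.42, standard error 0.10, adjusted p = 0.298 from limma). Mad2l1, which encodes the checkpoint protein Mad2, was 8.11, 8.02 and 8.04 in B6 and 8.07, 8.33 and 8.24 in B6-ChrYSJL. Here the pools overlapped and the log2 fold change had the opposite sign, 0.16 (standard error 0.08, unadjusted p = 0.0857 in limma). Without B6-ChrYSJL replicate 1 it was 0.23 (unadjusted p = 0.0175 in limma), and without B6-ChrYSJL replicate 2 it was 0.10 (unadjusted p = 0.26 in limma). Cdc20, the activator that the checkpoint holds back, was at −0.15 (standard error 0.09), and the kinase gene Ttk at −0.07 (standard error 0.07), both with overlapping groups.

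Of the chromosomal passenger complex and the mitotic kinases, 2 of 8 genes were lower at an unadjusted p under 0.05. This was 25%, against 5.92% of all tested transcripts. Birc5, which encodes survivin, the subunit that brings Aurora B to the centromere, was 6.49, 6.35 and 6.02 in B6 and 5.85, 6.01 and 6.01 in B6-ChrYSJL. B6 replicate 3 came within 0.01 of the B6-ChrYSJL pools (−0.33, standard error 0.12). Nek2, a kinase of centrosome separation, was 5.96, 5.95 and 5.85 in B6 and 5.65, 5.77 and 5.53 in B6-ChrYSJL. Its pools were all below background but did not overlap (−0.27, standard error 0.08, adjusted p = 0.351 from limma). Incenp, the scaffold that binds survivin and Aurora B, was 7.33, 7.35 and 7.33 in B6 and 7.24, 7.41 and 7.28 in B6-ChrYSJL. The groups overlapped, with a log2 fold change of −0.02 (standard error 0.07), and Aurkb, the kinase of the complex, was at −0.07 (standard error 0.09). Aurka, the Aurora kinase of spindle poles, was at 0.00 and Plk4, which starts centriole duplication, at 0.06 (standard errors 0.08 and 0.10). Plk1, the polo kinase of mitotic entry, and Melk were at −0.18 and −0.20 (standard error 0.09 each), and the Plk1 pools did not overlap.

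Kinetochore genes had a median log2 fold change of −0.03. Of the 8 genes 3 were lower at an unadjusted p under 0.05 (37.5%, against 5.92% of all tested transcripts). Cenpf, a large protein of the outer kinetochore, was 5.55, 5.58 and 5.45 in B6 and 5.26, 5.31 and 5.41 in B6-ChrYSJL. The groups were 0.04 apart and below background (−0.20, standard error 0.07). Nuf2 (−0.30, standard error 0.12) and Spc24 (−0.25, standard error 0.10), which belong to the microtubule-binding Ndc80 complex, were lower with overlapping pools. The other members of that complex, Ndc80 at 0.06 (standard error 0.08) and Spc25 at 0.07 (standard error 0.07), had the opposite sign, and neither had an unadjusted p under 0.05. Cenpa, the histone H3 variant that marks centromeres, was 8.77, 8.86 and 8.83 in B6 and 8.80, 8.93 and 8.73 in B6-ChrYSJL. Its pools overlapped at a mean of 8.82 in both strains. Cenpe, a motor of chromosome alignment, and Cenpk were at −0.04 and −0.02, both below background.

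Of the 7 kinesins, 2 were lower at an unadjusted p under 0.05 (28.6%, against 5.92% of all tested transcripts). Kif11 encodes Eg5, the motor that pushes the spindle poles apart, and was 5.98, 5.74 and 6.12 in B6 and 5.07, 5.45 and 5.41 in B6-ChrYSJL. A gap of 0.29 separated the groups and B6-ChrYSJL replicate 1 was the lowest, so that the log2 fold change of −0.64 (standard error 0.13, adjusted p = 0.249 from limma) was −0.52 without that pool. Both group means were below background. Kif20a, a motor of the central spindle, was 6.65, 6.53 and 6.90 in B6 and 6.63, 6.57 and 6.61 in B6-ChrYSJL. Its pools overlapped, and its difference of −0.09 (standard error 0.10) was 0.01 without B6 replicate 3, the highest pool. Kif2c, which depolymerizes microtubules at centromeres, was at −0.19 (standard error 0.08, unadjusted p = 0.0431 in limma) with overlapping pools. Kif4 and Kif20b were at −0.24 and −0.14, Kif23, the motor of centralspindlin, at −0.06, and Kif22, the chromokinesin, at 0.11, none with an unadjusted p under 0.05.

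Of the 7 genes of spindle assembly, the midzone and cytokinesis 5 were lower at an unadjusted p under 0.05 in limma. This was 71.4%, against 5.92% of all tested transcripts. The median was −0.25 and all 7 log2 fold changes were below 0 (51.1% of all tested transcripts), although all 7 averaged at or below background. Ect2, which activates RhoA at the cleavage site, was 5.79, 5.91 and 5.96 in B6 and 5.23, 5.57 and 5.61 in B6-ChrYSJL. The groups were 0.18 apart (−0.42, standard error 0.11, adjusted p = 0.321 from limma) and B6-ChrYSJL replicate 1 was again the lowest. Nusap1, a protein that bundles spindle microtubules, was 5.57, 5.74 and 5.56 in B6 and 5.30, 5.43 and 5.31 in B6-ChrYSJL. Tpx2, which activates Aurora A and nucleates microtubules near chromosomes, was 5.65, 5.64 and 5.55 in B6 and 5.35, 5.42 and 5.45 in B6-ChrYSJL. Both had tight groups, 0.14 and 0.10 apart, with log2 fold changes of −0.28 and −0.21 (standard errors 0.08 and 0.07). Hmmr, a spindle protein also known as a hyaluronan receptor, was 4.80, 4.72 and 4.68 in B6 and 4.65, 4.30 and 4.50 in B6-ChrYSJL. The groups were dim and 0.02 apart (−0.25, standard error 0.10), and the difference was −0.16 without B6-ChrYSJL replicate 2 (unadjusted p = 0.0952 in limma). Racgap1, the partner of Kif23 in centralspindlin, was 5.97, 5.95 and 6.11 in B6 and 5.95, 5.92 and 5.87 in B6-ChrYSJL. The groups just overlapped and the difference was −0.10 (standard error 0.07). Prc1, which crosslinks midzone microtubules, was at −0.29 (standard error 0.12, unadjusted p = 0.0479 in limma) with overlap, and Anln, the scaffold of the contractile ring, at −0.13 (standard error 0.07).

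Of the condensin, separase and securin genes 2 of 7 were lower at an unadjusted p under 0.05, both of them subunits of condensin I. This was 28.6%, against 5.92% of all tested transcripts. Smc4, one of the ATPase pair common to both condensins, was 10.76, 10.77 and 10.75 in B6 and 10.75, 10.93 and 10.82 in B6-ChrYSJL. Its groups overlapped (0.07, standard error 0.07), and its partner Smc2 was at −0.04 (standard error 0.09). Ncapd2, a condensin I subunit, was 7.87, 8.10 and 8.02 in B6 and 7.86, 7.80 and 7.79 in B6-ChrYSJL. B6 replicate 1 lay 0.02 above the nearest B6-ChrYSJL pool (−0.19, standard error 0.08). Ncapg, another condensin I subunit, was 5.51, 5.50 and 5.57 in B6 and 5.09, 5.34 and 5.46 in B6-ChrYSJL. The groups were 0.03 apart (−0.23, standard error 0.10) and the difference was −0.12 without B6-ChrYSJL replicate 1. The third, Ncaph, was at −0.11 (standard error 0.08) with overlap. Whether the shared and the particular subunits differ was not tested. Espl1, which encodes separase, and Pttg1, which encodes its inhibitor securin, were at 0.07 and −0.05 (standard errors 0.10 and 0.08).

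**Figure D3:**
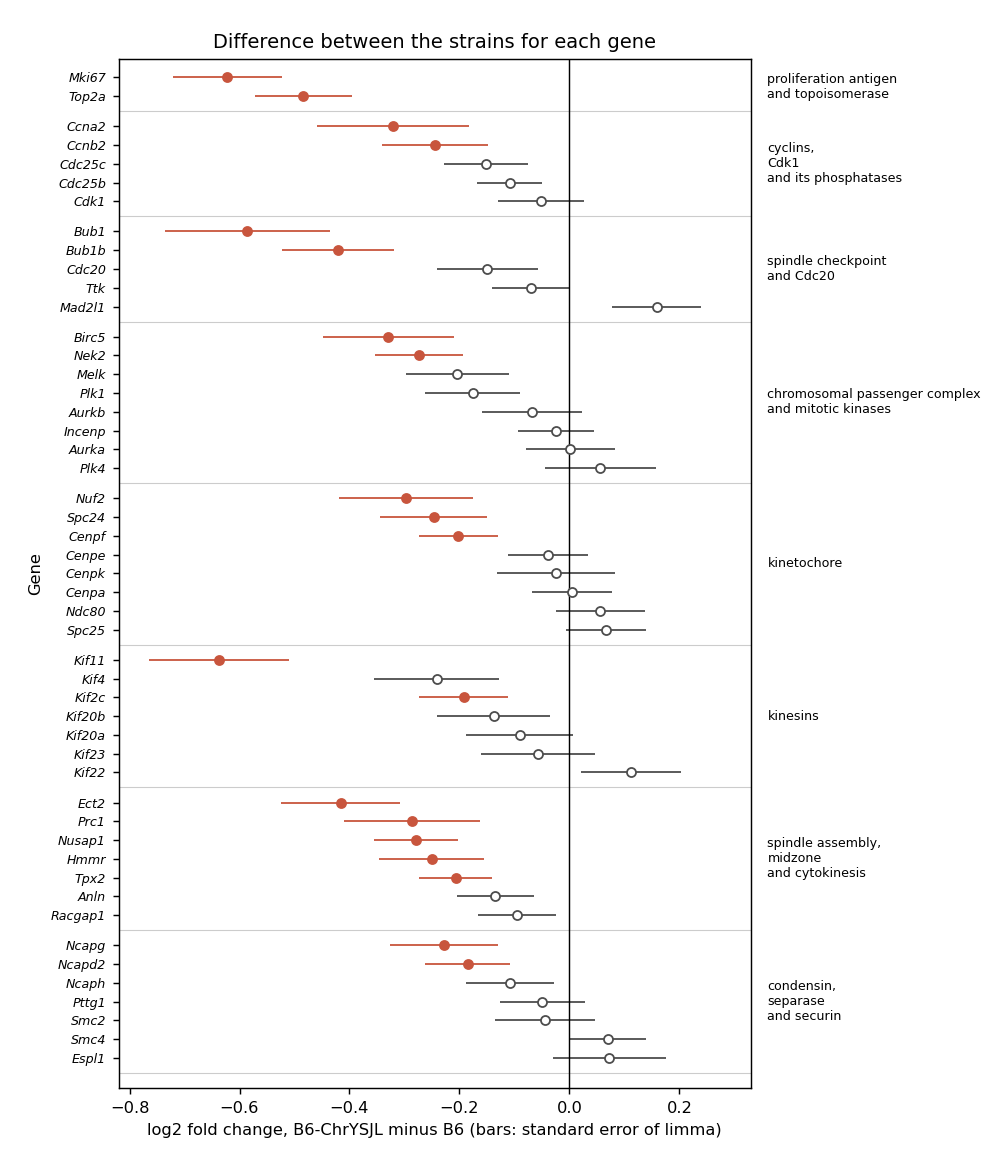
Log2 fold change of each gene, B6-ChrYSJL minus B6 (horizontal, with the standard error of limma as bar), by role; filled symbols have an unadjusted p under 0.05. The filled symbols all lie below 0, from −0.64 for Kif11 to −0.19, and the highest open symbol is Mad2l1 at 0.16.

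Within a strain the pools differed in which genes were high. B6 replicate 1 had the highest of the 3 B6 values for 15 genes, among them Mki67, Ccna2 and Birc5, and the lowest for 24. B6 replicate 2 had the highest for 22 and B6 replicate 3 for 12, Kif11 included. Averaged over the 49 genes, each centred on its own mean, the B6 pools were at 0.06, 0.10 and 0.09 and the B6-ChrYSJL pools at −0.14, −0.06 and −0.05, and over all tested transcripts the pools lay between −0.01 and 0.00. The strains were thus apart in this mean, with B6-ChrYSJL replicate 1 the farthest down. That pool was the lowest of its group for 30 genes and the lowest of all 6 for 25, while it was the lowest of all 6 for 15.7% of all tested transcripts. Genes above their own mean numbered 27, 41 and 37 in the B6 pools (55.1, 83.7 and 75.5%) and 7, 15 and 17 in the B6-ChrYSJL pools (14.3, 30.6 and 34.7%). Of all tested transcripts, 46.1 to 52.8% were above their own mean in each pool. With each pool left out in turn, 9 of the 20 genes kept an unadjusted p under 0.05 in limma in all 6 fits. These were Mki67, Top2a, Bub1, Bub1b, Nek2, Kif11, Tpx2, Ect2 and Nusap1. The other 11 genes kept it in 1 to 3 of the 6 fits. All 20 log2 fold changes stayed below 0 in all 6 fits, but the 20 were chosen by p in the same arrays. For the 16 whose groups do not overlap, leaving out a pool could not change the sign.

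Lists of other cell cycle genes had medians nearer to 0, a contrast that was not tested. Genes counted as lower or higher here had an unadjusted p under 0.05 in limma, as had 5.92% and 4.69% of all tested transcripts. Of 60 measured mitosis genes outside the 49, 9 were lower and 1, Cenpp, was higher at an unadjusted p under 0.05 (15% lower, median −0.05). They included Cdca8, which encodes borealin of the chromosomal passenger complex (−0.43, standard error 0.07, adjusted p = 0.168 from limma), Knl1, the kinetochore platform for Bub1 (−0.39, standard error 0.09), and Shcbp1, a binder of centralspindlin (−0.43, standard error 0.11), the 6-array means of all 3 below background. Of 49 measured genes of DNA replication and nucleotide supply, 10 were lower and 2 higher (20.4% lower, median −0.11), among them Uhrf1, which carries DNA methylation through replication (−0.33, standard error 0.07), Rpa2, of the single-strand binding protein (−0.24, standard error 0.06), and Gins2, of the replicative helicase (−0.34, standard error 0.09). None of the 14 measured subunits and activators of the anaphase-promoting complex had an unadjusted p under 0.05 in limma, and of 10 cohesin genes 2 were lower, Nipbl at −0.19 and Smc1a at −0.15. Of 22 transcription factors of the cycle 2 were lower, Lin37, a subunit of MuvB (−0.30, standard error 0.08), and Foxm1, the activator of mitotic genes (−0.34, standard error 0.09, adjusted p = 0.323 from limma). Among 11 G1 cyclins and kinases and 15 inhibitors of the cycle and quiescence factors none had an unadjusted p under 0.05 in limma. No gene of these lists passed an FDR of 0.05.

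**Figure D4:**
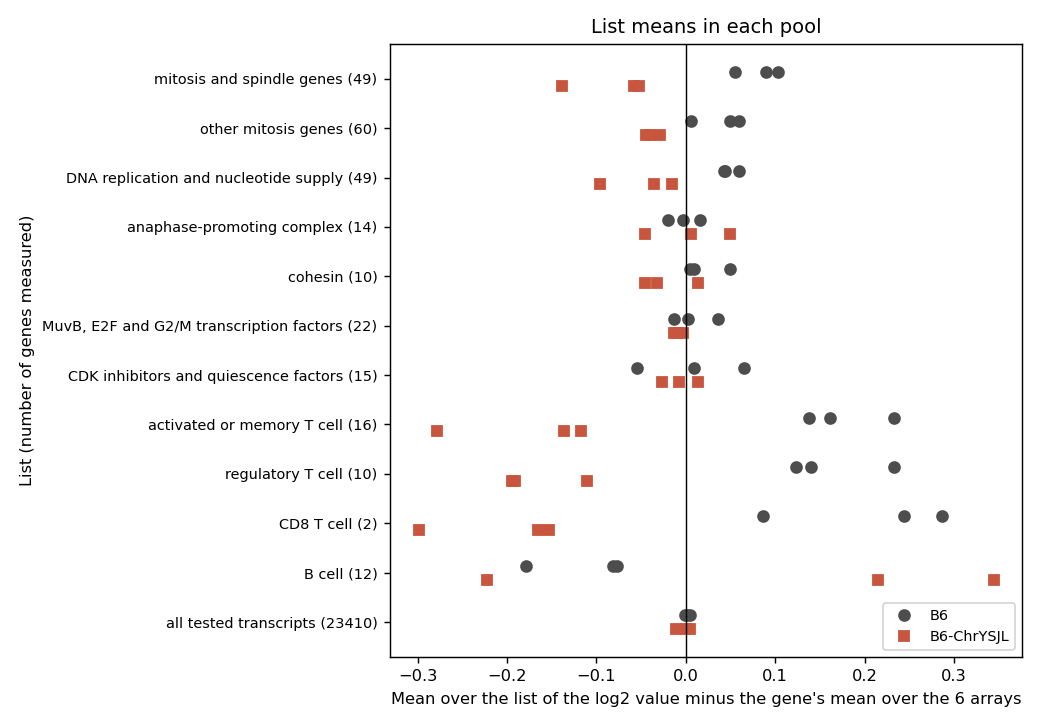
List averages of log2 values, each gene centred on its 6-array mean (horizontal) for B6 pools (circles) and B6-ChrYSJL pools (squares), with the number of genes measured. The mitosis and spindle genes separate the strains, from 0.06 to 0.10 against −0.14 to −0.05, as do the other mitosis genes (0.01 to 0.06 against −0.05 to −0.03), DNA replication (0.04 to 0.06 against −0.10 to −0.02) and the activated or memory, regulatory and CD8 T cell lists. The other lists shown overlap. Among lists not shown, germinal centre B cell markers (−0.08 to −0.003 in B6, 0.03 to 0.08 in B6-ChrYSJL) separate the strains the other way. So do lymph node stroma markers (−0.07 to 0.003 against 0.01 to 0.07).

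Markers of T cell states and of other cells differed beside the mitosis genes, and their part in the difference was not tested. Markers called lower or higher here had an unadjusted p under 0.05 in limma. Over all tested transcripts 5.92% were lower and 4.69% were higher by that measure. Of 16 markers of activated or memory T cells 12 were lower and none higher (median −0.28, 14 log2 fold changes below 0 and 2 above). Their list means were 8.37 to 8.47 in B6 and 7.96 to 8.12 in B6-ChrYSJL. Of 10 regulatory T cell markers 8 were lower and none higher (median −0.26, all 10 below 0), with list means of 8.79 to 8.90 and 8.47 to 8.56. One of these, Itgae, the αE integrin, passed the FDR (−0.87, adjusted p = 0.0218 from limma). B6-ChrYSJL replicate 1, the lowest pool for mitosis genes, was also the lowest for several other lists. Among these were the activated or memory, regulatory T cell, B cell and DNA replication lists. Of the B6 pools, replicate 2 was the highest for mitosis genes but the lowest for the activated or memory list. Both CD8 markers, which the CD4 gate should not select, were lower, by −0.54 for Cd8a and by −0.28 for Cd8b1 (standard errors 0.12 and 0.09), with list means of 7.42 to 7.62 in B6 and 7.03 to 7.18 in B6-ChrYSJL. Of 12 B cell markers 2, H2-Eb1 and H2-Ab1, were higher and none lower (median 0.21, 11 log2 fold changes above 0 and 1 below). Their list means were 6.28 to 6.38 in B6 and 6.23 to 6.80 in B6-ChrYSJL. Of 5 measured markers of germinal centre B cells, which divide fast, none had an unadjusted p under 0.05 in limma and 3 were below background on all arrays, with list means of 5.84 to 5.91 in B6 and 5.94 to 5.99 in B6-ChrYSJL. Of 7 granulocyte markers 6 were below background on all arrays, and none of 4 measured erythroid markers had an unadjusted p under 0.05 in limma. The 8 measured T cell markers had a median log2 fold change of −0.02, and none had an unadjusted p under 0.05 in limma. Among 5 thymocyte markers Dntt was lower (−0.32) and Ptcra higher (0.22), and among 5 plasma cell markers Prdm1, a factor of effector T cells as well, was lower (−0.30). Pdpn and Col1a2 of 7 stromal markers (0.20 and 0.18, list means of 6.77 to 6.84 in B6 and 6.85 to 6.91 in B6-ChrYSJL) and Itgax of 8 myeloid markers (0.17) were higher, and none of 6 natural killer cell markers had an unadjusted p under 0.05 in limma.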

How the data were processed

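RNA of 6 pools, 50 ng each, was amplified and hybridized by the authors, who deposited log2 values, 1 for each array and transcript cluster, after RMA (background correction, quantile normalization and median polish) in Partek. GCOS and mm9 are further names in the submitters' processing notes. These values were used as they are. Quantile normalization makes the arrays' distributions equal, so a shift of all transcripts would not be seen. No depth applies to arrays, and their number limits the precision. P-values measure the spread between pools.

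Of 35556 clusters, 21789 had 1 symbol in the platform annotation and 1621 several; symbols were updated through a RefSeq table of GRCm38.p6. Linear models over all 23410, without a block, came from limma 3.58.1 (lmFit and eBayes; R 4.3.3), and p-values were adjusted by Benjamini-Hochberg across the whole set; every adjusted p is limma's. Clusters with several symbols are not named, except those shared by Top2a. The fit was tested on simulated data. Genes given with every pool were those with an unadjusted p under 0.05 and no overlap, Mki67, Top2a, Cdk1, and the brightest of each role; of each other list, those with the smallest p. Values named outside this rule (other genes of the 49, second Top2a clusters, several markers) were chosen after they were seen. The genes and lists were chosen with earlier results of these data known. Alternatives tried were an ordinary linear model, a trended and robust prior, array weights, a background filter, all deposited clusters, median-centring, repeated quantile normalization, averaging over a gene's clusters, a replicate block, and leaving out each pool. Python 3.11.15 with matplotlib 3.10.9 made the figures.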

Additional observations from a re-analysis of the deposited data

How the results depend on the processing

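The number of genes lower at an unadjusted p under 0.05 (20 of 49) was 17 to 20 with a trended and robust prior, array weights, median-centring, repeated quantile normalization, averaging over clusters or the replicate number as a block, where it was 19. Of all transcripts in these fits 5.09 to 6.73% were lower by that measure. The number of genes was 11 in the ordinary linear model (5.79% of all transcripts) and 12 over all deposited clusters (4.82%). It was 8 of 25 when only transcripts above background were fitted (8.72%), and 11 to 16 with a pool left out (4.31 to 5.69%). The median log2 fold change was −0.091 over those 25 and otherwise between −0.17 and −0.12. One gene, Mad2l1, was higher at an unadjusted p under 0.05 after repeated quantile normalization and without B6-ChrYSJL replicate 1, so that the number higher was 0 to 1 with a pool left out. One gene, Mki67, passed an FDR of 0.05 with a trended and robust prior (adjusted p = 0.027 from limma), and none of the 49 did under any other alternative. All transcripts past that FDR numbered 4, and 0 in the ordinary linear model and over all deposited clusters, 47 with the trended prior, 13 above background, 11 median-centred, 2 after repeated quantile normalization, 8 averaged over clusters, 3 with the block, and 0 to 7 with a pool left out. Log2 fold changes near 0 turned sign: with a pool left out, Cdk1 ranged from −0.092 to 0.0075, Incenp from −0.076 to 0.011, Kif20a from −0.17 to 0.014 and Cenpa from −0.049 to 0.049. Incenp was 0.0053 after repeated quantile normalization, and Cenpa was −0.014 with array weights and −0.0060 median-centred. The cause of these changes was not tested, except that a filter or a left-out pool leaves fewer genes or samples. Pools with the same replicate number did not deviate together over transcripts above background (correlations of −0.01, −0.03 and 0.00). No common shift was seen, but the labels do not say what the numbers mark, and a shared day was not tested. Only counts are therefore given for the block. Of the 49 genes 24 averaged at or below background, where neither a level nor the size of a difference is well measured.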
